A study of Mus musculus with 14 samples.

Results

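Macrophages are phagocytes that live in the mammary gland and in its tumors, and 9 genes used to mark them were followed here through MMTV-neu mammary tumorigenesis. The genes, Mrc1, Csf1r, Adgre1 (also written Emr1), Cd68, Fcgr1, Cd14, C1qa, C1qb and Lyz2, were matched by gene symbol in the platform annotation. They are represented by 15 of the 12488 probe sets on the array. Of these, 12 passed the filter on dim signals and were tested among 8616, and each of the 9 genes kept at least 1. The 3 that did not pass were Adgre1 161377_at, Cd68 162173_i_at and Lyz2 162309_at. A further probe set annotated to both Lyz1 and Lyz2 was left out. Where a gene had several probe sets, the one of highest mean log2 value represents it.

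The study measured RNA from whole mammary tissue, 1 sample per array on 14 arrays. In MMTV-neu mice a mammary tumor virus promoter drives the neu (erbB2) oncogene in mammary epithelium. Tumor arrays (n = 5) hold tumors of these mice, and Tumor_setB (n = 2) holds a second set of such tumors, run to see whether changes recur. AdjacentNeu arrays (n = 4) hold gland of the same transgenic line that surrounded a tumor and is labelled preneoplastic, here called adjacent gland. AMWT arrays (n = 3) hold wild-type gland, each a pool of RNA from 5 mice without the transgene. Pool 40 came from mice aged 31 weeks of 87.5% FVB and 12.5% CF-1 background, and pools 41 and 42 from mice aged 41 weeks of 97% FVB and 3% CF-1 background. Ages of the tumor-bearing mice are not given in the sources used here. Whether each tumor and adjacent gland had an animal of its own is not in the labels, so the p-values reflect the spread among these samples and that spread may be technical in part.

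Tissue macrophages depend on the cytokine CSF1, whose receptor is encoded by Csf1r, and they carry receptors that sort what the cell takes up. The mannose receptor encoded by Mrc1 binds sugars on glycoproteins and is a mark of resident and alternatively activated macrophages, while the high-affinity Fc receptor encoded by Fcgr1 binds IgG and is inducible by interferon. In the mammary gland, macrophages lie along ducts and in the fat pad, and in tumors they form a large part of the leukocytes.

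The deposited arrays share a 2% trimmed mean of about 1501, and array medians ran from 543.7 to 784.1. With 2 to 5 arrays a group, their number limits the precision. The arrays came from 5 lots by the lot numbers in the labels. Lot 2001815 was used for 3 tumors (22, 24, 26) and 2 adjacent glands (23, 25). Lot 2004907 was used for the other 2 adjacent glands (49, 51) and for pool 40. Tumors 50 and 52 (lot 2004097), pools 41 and 42 (2003877) and both set B tumors (2006609) each lay in lots of their own. No lot held tumors with wild-type gland, so that comparison has no within-lot value, and for set B lot and group cannot be told apart. Array medians were highest in lot 2001815, at 622.6 to 784.1, against 543.7 to 624.0 in the other lots. Of the 9 genes, 8 were above the floor of 101 on every array, so the macrophage label had signal in every sample. The exception was Adgre1 in tumor 22.

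The 250 bases upstream of the start of 4 members are shown because these genes went different ways in tumors: Mrc1 fell, Fcgr1 rose, C1qb was not called and Lyz2 was low in 4 of 5 tumors. They are reference sequences from RefSeq (GRCm38.p6), written 5′ to 3′ on the strand of the gene. Capitals mark ACTTCCT, the reverse complement of AGGAAGT, a core of the kind bound by ETS factors such as PU.1, the myeloid regulator encoded by Spi1. The motif was chosen after these stretches had been read.
Mrc1, chr2:14229164-14229413, plus strand: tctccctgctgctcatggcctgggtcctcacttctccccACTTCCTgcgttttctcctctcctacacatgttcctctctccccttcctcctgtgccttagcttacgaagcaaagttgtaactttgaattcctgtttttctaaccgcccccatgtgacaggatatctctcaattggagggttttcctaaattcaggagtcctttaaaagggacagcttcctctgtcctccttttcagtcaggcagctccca
Fcgr1, chr3:96293970-96294219, minus strand: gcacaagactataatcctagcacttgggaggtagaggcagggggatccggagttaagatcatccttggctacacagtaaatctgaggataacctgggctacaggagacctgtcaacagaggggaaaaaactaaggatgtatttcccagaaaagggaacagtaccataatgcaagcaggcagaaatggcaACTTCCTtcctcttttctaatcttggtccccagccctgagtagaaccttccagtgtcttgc
C1qb, chr4:136886201-136886450, minus strand: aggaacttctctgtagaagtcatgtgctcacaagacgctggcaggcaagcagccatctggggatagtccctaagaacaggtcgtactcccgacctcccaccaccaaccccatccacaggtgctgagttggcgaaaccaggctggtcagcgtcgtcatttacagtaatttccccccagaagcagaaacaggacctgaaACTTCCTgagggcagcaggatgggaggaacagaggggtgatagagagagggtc
Lyz2, chr10:117282273-117282522, minus strand: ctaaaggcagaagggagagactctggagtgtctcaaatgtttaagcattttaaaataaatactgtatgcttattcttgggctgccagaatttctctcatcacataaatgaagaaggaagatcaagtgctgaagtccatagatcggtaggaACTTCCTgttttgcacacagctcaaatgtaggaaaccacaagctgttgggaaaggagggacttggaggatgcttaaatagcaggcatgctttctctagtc

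The match began 211 bases before the start in Mrc1, 61 in Fcgr1, 53 in C1qb and 100 in Lyz2. Of the 5 members whose upstream stretch was searched, Cd68 had no match. Csf1r and Cd14 were left out of this search, and the reference used held no stretch for C1qa and Adgre1. C1qc, which is not a member, was also searched and had a match 195 bases before its start. Searched on both strands, 2525 of 32851 RefSeq promoters (7.69%) held these 7 letters in the same window. The match is shared by members that rose, fell and did neither, and it is a description of letters only.

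**Figure D1:**
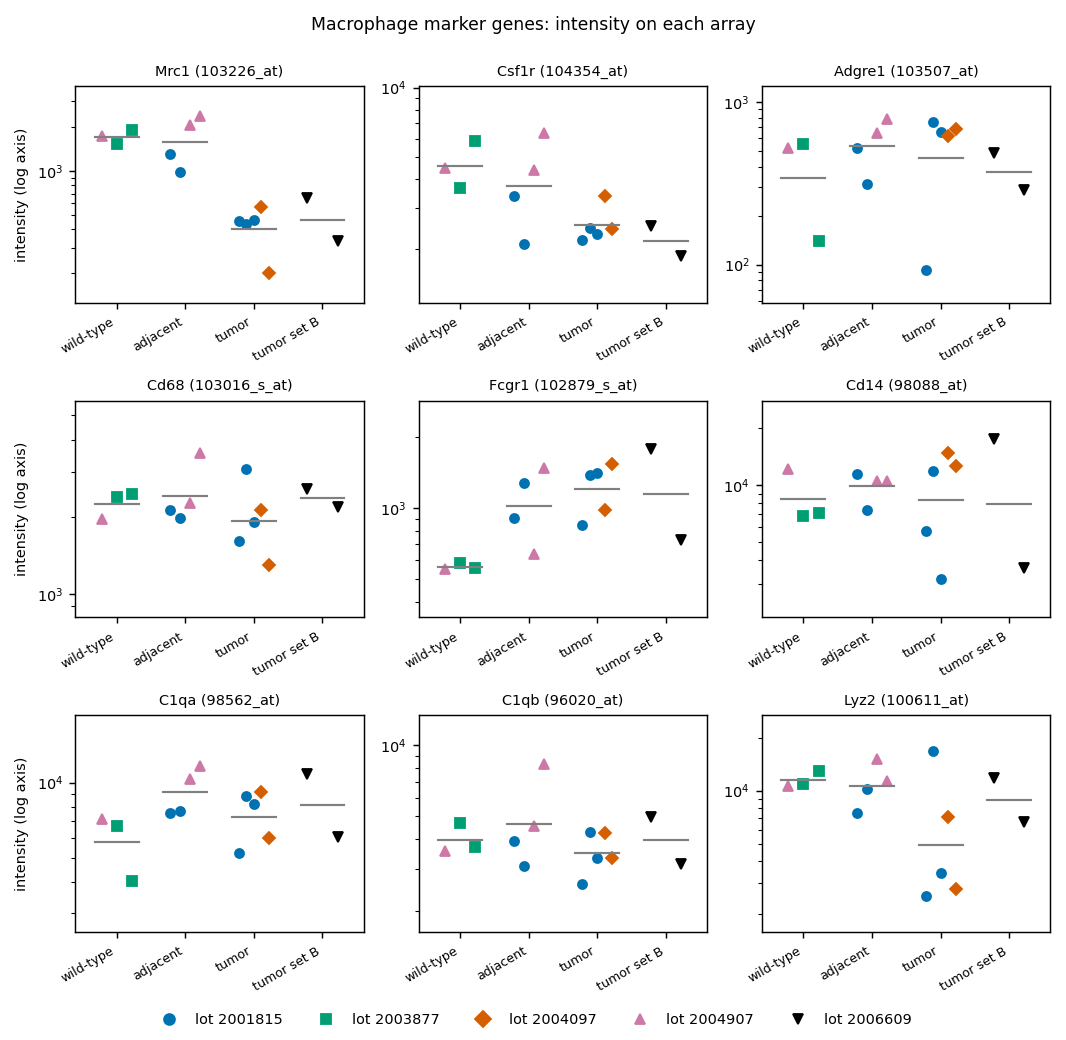
Deposited intensity (log scale) of the 9 macrophage genes on each of the 14 arrays, by group. Each point is 1 array, its symbol gives the array lot, and the horizontal line is the geometric mean of the group. Mrc1 lies between 201.5 and 563.5 in the 5 tumors and between 982.4 and 2369 in all 7 gland samples, while Cd68 overlaps across all groups.

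Tumors (n = 5) were first set against wild-type gland (n = 3). Mrc1 was 4.28-fold lower in tumors and Csf1r 1.82-fold lower, while Fcgr1 was 2.13-fold higher. The lysosomal protein gene Cd68, the lipopolysaccharide co-receptor gene Cd14, the complement genes C1qa and C1qb and the adhesion receptor gene Adgre1 were not called. So 3 of 12 member probe sets (25%) were called at an adjusted p under 0.05 in limma, 1 higher and 2 lower, against 29.9% of all probe sets tested (15.8% higher and 14.1% lower). Groups did not overlap for the same number, 25% of the members against 34.8% of all. The median log2 difference was 0.00 over the 12 member probe sets and 0.16 over all probe sets. Counted by gene, as for the gene lists below, it was -0.18, with 1 of 9 called higher and 2 lower. As a group, then, the member probe sets were called no more often than other probe sets, and the description is of single genes. In tissue RNA, fewer macrophages and less RNA of a gene per macrophage cannot be told apart.

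Mrc1 encodes the mannose receptor, which takes up glycoproteins and microbes. Its intensity was 1738, 1517 and 1916 in wild-type pools 40, 41 and 42, and 1306, 982.4, 2074.5 and 2369 in adjacent glands 23, 25, 49 and 51. It was 457.7, 431.3, 463.1, 563.5 and 201.5 in tumors 22, 24, 26, 50 and 52, and 654.5 and 331.7 in set B tumors 80 and 81. Every tumor of both sets lay below every sample of gland, and tumor 52 was the lowest. The log2 difference of tumors from wild-type gland was -2.10 ± 0.36 (SE; 95% interval -2.87 to -1.32; adjusted p = 0.000433 in limma). From adjacent gland it was -1.98 ± 0.34 (95% interval -2.69 to -1.27; adjusted p = 0.00071), a 3.95-fold lower level. Within lot 2001815, tumors were lower than adjacent gland by a log2 difference of -1.33 (adjusted p = 0.0991), with no overlap of the 3 tumors and 2 glands. With lot as a fixed block, the difference from wild-type gland was -0.98 and was not called (adjusted p = 0.557).

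Csf1r encodes the receptor for CSF1 and IL-34, on which survival of tissue macrophages depends. Probe set 104354_at read 4466, 3678 and 5872 in the wild-type pools, 3406, 2101, 4384 and 6330 in adjacent glands, and 2176, 2455, 2329, 3383 and 2446 in tumors. Set B tumors read 2511 and 1871. All 7 tumors lay below the 3 wild-type pools, but adjacent gland 25 lay below every tumor of the first set. The log2 difference from wild-type gland was -0.86 ± 0.29 (95% interval -1.47 to -0.25; adjusted p = 0.0329). That call was lost with lot as a fixed block (0.03) or as a random block (-0.73, adjusted p = 0.0917), and without wild-type pool 40 or 42 or tumor 22, 26 or 52, where adjusted p reached 0.159. It was also lost with no filter on dim probe sets (adjusted p = 0.0733), with median centring (adjusted p = 0.0544) and with no intensity trend (adjusted p = 0.0506). From adjacent gland the difference was -0.57 (adjusted p = 0.179), and -0.85 (adjusted p = 0.0214) without gland 25. The second probe set of the gene, 161832_r_at, was dim at 371.3 to 718.4 and did not follow the first. Its log2 difference in tumors was 0.02 (adjusted p = 0.97).

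Fcgr1 encodes the high-affinity receptor for IgG, also known as CD64. Probe set 102879_s_at read 549.7, 584.0 and 558.4 in the wild-type pools, a range narrower than in any other group. Each pool averages RNA of 5 mice, so this is not the range of single mice. The probe set read 903.3, 1270.0, 638.4 and 1482 in adjacent glands, 845.3, 1376, 1409, 981.8 and 1542 in tumors, and 1778 and 731.7 in set B tumors. All 11 samples from transgenic mice lay above the 3 wild-type pools. In tumors the log2 difference was 1.09 ± 0.33 (95% interval 0.39 to 1.79; adjusted p = 0.0203), and leaving out any 1 wild-type pool took the call away (adjusted p from 0.0549 to 0.0629). With lot as a fixed block the value was 0.96 but was not called (adjusted p = 0.604), and as a random block it was 1.07 (adjusted p = 0.0455). Tumors and adjacent gland differed by 0.23 (95% interval -0.41 to 0.87; adjusted p = 0.703). The other probe set, 101793_at, was at or near the floor in most arrays (53.7 to 588.2), so its difference of 0.50 (adjusted p = 0.62) has little measured signal behind it. By the maker's naming, probe sets ending in _s_at, as for Fcgr1 and Cd68 here, can be shared by several transcripts.

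Lyz2 encodes lysozyme M, an enzyme that digests bacterial cell walls and is made by macrophages and neutrophils. Its probe set 100611_at read 10589, 10939 and 12953 in wild-type pools and 7510, 10216, 15048 and 11290 in adjacent glands. In tumors it read 2523, 16698, 3396, 7058 and 2776, so tumors 22, 26, 50 and 52 lay below all 7 gland samples and tumor 24 lay above them. Set B tumors read 11719 and 6620. The log2 difference of tumors from wild-type gland was -1.23 ± 0.47 (adjusted p = 0.0622), and from adjacent gland -1.13 ± 0.43 (adjusted p = 0.102). Without tumor 24 it was -1.67 (adjusted p = 0.00121) and -1.57 (adjusted p = 0.00193). The near-identical gene Lyz1 may share this signal.

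C1qa and C1qb encode chains of C1q, the recognition protein of the classical complement pathway, which in most tissues is made by macrophages. C1qa read 7138, 6692 and 4023 in wild-type pools, 7538, 7714, 10319 and 11640 in adjacent glands, and 5206, 8840, 8185, 9194 and 5995 in tumors. Set B tumors read 10838 and 6069. Every adjacent gland lay above every wild-type pool, and tumors overlapped both. The log2 difference was 0.34 in tumors (95% interval -0.22 to 0.90; adjusted p = 0.35) and 0.66 ± 0.27 in adjacent gland (adjusted p = 0.271). C1qb (96020_at) read 3584, 4687 and 3720 in wild-type pools, 3922, 3085, 4573 and 8329 in adjacent glands, 2604, 4313, 3328, 4265 and 3348 in tumors, and 4966 and 3152 in set B. The groups overlapped, with adjacent gland 51 the highest of all arrays. Its difference in tumors was -0.18 (95% interval -0.77 to 0.41; adjusted p = 0.661). Its dimmer probe set 162276_i_at had 0.70 (95% interval -0.47 to 1.87; adjusted p = 0.358).

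Cd68, a lysosomal glycoprotein gene of phagocytes, stayed within 1297 to 3548 on all 14 arrays. It read 1959, 2388 and 2447 in wild-type pools and 1616, 3076, 1918, 2127 and 1297 in tumors, a log2 difference of -0.23 (95% interval -0.78 to 0.32; adjusted p = 0.536). Adjacent glands read 2127, 1981, 2257 and 3548, and set B tumors 2573 and 2188. The groups overlapped throughout.

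Cd14 encodes the co-receptor that hands bacterial lipopolysaccharide to toll-like receptor signaling, and mammary epithelium can express it too. It read 12228, 6869 and 7136 in wild-type pools, 11486, 7394, 10520 and 10493 in adjacent glands, and 5745, 11876, 3201, 14793 and 12575 in tumors. Set B tumors read 17450 and 3656, the highest value of all arrays and one of the lowest. The difference of tumors from wild-type gland was -0.01 (95% interval -1.06 to 1.03; adjusted p = 0.988), an interval that allows a 2-fold change either way. The spread lay among tumors rather than between groups, with an SD of log2 values of 0.93 in tumors and 0.28 in adjacent gland.

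Adgre1 encodes F4/80, a surface receptor used to identify mouse macrophages. It read 517.5, 554.2 and 139.5 in wild-type pools, 518.4, 314.9, 647.0 and 780.5 in adjacent glands, 93.4, 756.5, 654.5, 615.0 and 683.5 in tumors, and 483.5 and 286.4 in set B. Tumor 22 and pool 42 were low and the other samples overlapped. The difference in tumors was 0.44 (95% interval -0.89 to 1.76; adjusted p = 0.63). It was 0.98 without tumor 22 and turned to -0.21 without pool 42.

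**Figure D2:**
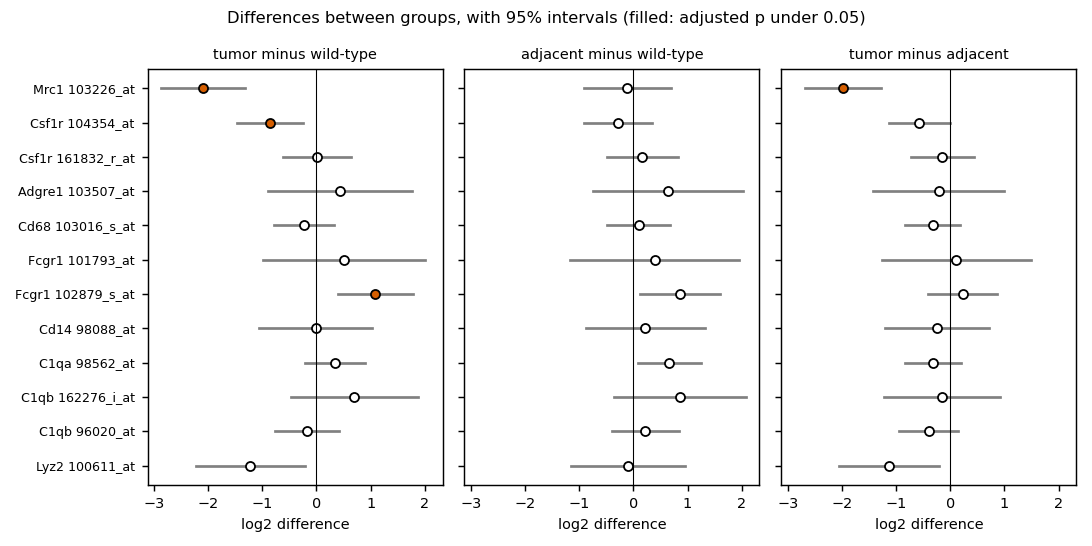
Log2 difference of each of the 12 member probe sets in tumors against wild-type gland, adjacent against wild-type gland and tumors against adjacent gland. Points are limma estimates, bars are 95% intervals and filled points were called. Mrc1 lies at -2.10 and -1.98 in both tumor comparisons and at -0.12 in adjacent gland, where no member was called.

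The second comparison asked whether these genes already differ in adjacent gland (n = 4) against wild-type gland (n = 3). No member probe set was called, against 1.17% of all probe sets (0.72% higher and 0.453% lower). At an unadjusted p under 0.05 in limma were 2 of 12 member probe sets, and 1273 of all 8616 probe sets. The 2 members were Fcgr1, at 0.86 ± 0.34 (95% interval 0.13 to 1.59; adjusted p = 0.259), and C1qa, given above. Both had every adjacent gland above every wild-type pool, which held for 16.7% of members and 14.4% of all probe sets. The values were 0.82 for Fcgr1 and 0.62 for C1qa within lot 2004907, where glands 49 and 51 share the lot of pool 40. Mrc1 (-0.12, 95% interval -0.92 to 0.70) and Csf1r (-0.29, 95% interval -0.92 to 0.35) were not called, and within that lot they were 0.35 and 0.24. Glands 23 and 25 had lower Mrc1 and Csf1r than glands 49 and 51, which lie in the other lot. The median over the member probe sets was 0.22, against 0.07 over all probe sets.

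The third comparison set tumors (n = 5) against adjacent gland (n = 4). Mrc1 was the single member called of 12 (8.33%, against 14.4% of all probe sets, 5.34% higher and 9.04% lower). It was also the single member whose groups did not overlap, against 12.8% of all probe sets. Of the 12 differences 10 were negative, but the 12 probe sets stand for 9 genes on the same arrays. No like count was made over all probe sets. The median was -0.28 over the member probe sets, -0.33 over the 9 genes and 0.07 over all probe sets. Csf1r and Lyz2 had an unadjusted p under 0.05 but were not called, as given above. With Mrc1, 3 of 12 member probe sets were under that threshold, and 2261 of all 8616 probe sets. C1qa and C1qb were at -0.32 and -0.40 and Cd68 at -0.33 (adjusted p from 0.361 to 0.451), and within lot 2001815 these were -0.08, -0.06 and 0.05.

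The second set of tumors (n = 2) repeated the order for Mrc1 and Csf1r. Of 12 member probe sets 2 were called against wild-type gland (16.7%, against 23.2% of all), both lower. Groups did not overlap for 25% of the members and 57.3% of all probe sets. Mrc1 differed by -1.88 ± 0.46 (adjusted p = 0.00724) and Csf1r by -1.08 ± 0.36 (adjusted p = 0.0386), while Fcgr1 differed by 1.02 ± 0.41 (adjusted p = 0.0878). These comparisons share the wild-type pools with the first tumors, so they are no independent repeat of the controls. Without set B tumor 81 the call of Mrc1 was lost (-1.39, adjusted p = 0.122) and Fcgr1 was called (1.66, adjusted p = 0.0302). Csf1r lost its call without set B tumor 80 or 81 or without pool 40 or 42 (adjusted p from 0.073 to 0.253). Between the tumor sets limma called no member and none of all probe sets (0%), with 0 members and 932 of all probe sets at an unadjusted p under 0.05. No member separated the tumor sets without overlap, against 16.9% of all probe sets. The widest member difference, Lyz2 at 0.85, had an SE of 0.54.

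**Figure D3:**
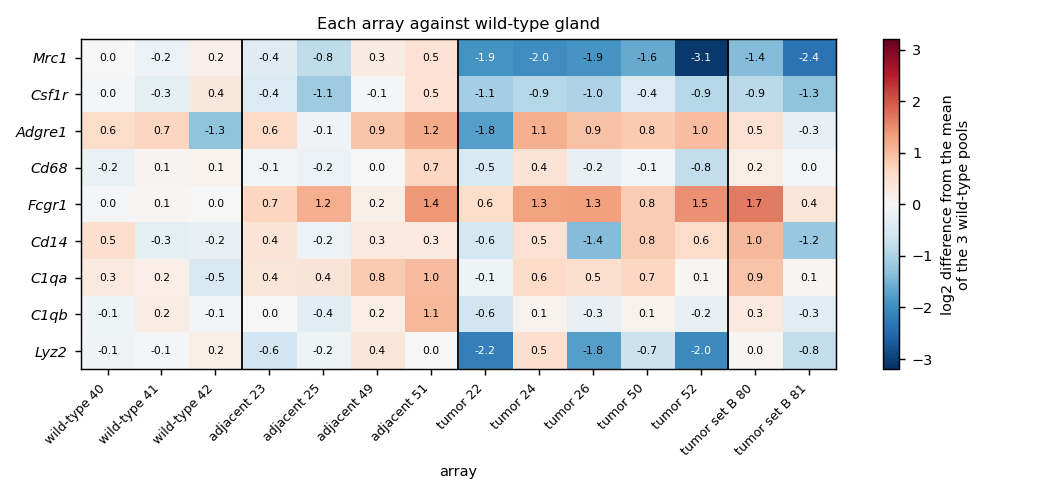
Log2 level of each of the 9 genes on each array minus the mean of the wild-type pools. Columns are arrays by group and rows are genes in order of their roles. Mrc1 is below 0 in all 7 tumors (-3.09 to -1.39), Fcgr1 is above 0 in all of them, and Lyz2 is lowest in tumor 22 (-2.18).

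Within single arrays, the markers did not all lie on the same side of the wild-type mean. The median of the 9 genes relative to the wild-type mean was -0.61 (log2) in tumor 22, 0.49 in tumor 24, -0.25 in tumors 26 and 52 and 0.10 in tumor 50. In tumor 24, 7 of 9 genes were above the wild-type mean, and in tumor 22, 1 of 9 was, Fcgr1. The summed linear intensity of the 9 genes ran from 21274 to 49822 in tumors. It ran from 37907 to 42768 in wild-type pools and from 35058 to 56260 in adjacent gland. The brightest genes weigh most in this sum. Tumors 22 and 24 had its lowest and highest tumor values, with Lyz2 at 2523 and 16698 and Cd14 at 5745 and 11876. Neutrophils also make Lyz2 and mammary epithelium can express Cd14, so the sum is not a measure of macrophages alone. Mrc1 relative to the mean of C1qa, C1qb and Cd68, a ratio picked after the values were seen, was -2.76 to -1.49 in tumors, -2.27 and -1.86 in set B, -0.76 to -0.07 in adjacent gland and -0.36 to 0.32 in wild-type gland. Mrc1 was the lowest of the 9 genes in 4 of the first 5 tumors and in both set B tumors, and Lyz2 was the lowest in tumor 22.

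Across the 14 arrays, 33 of the 36 pairs of members had a positive Pearson r, with a median of 0.40. Over deviations from group means 35 of 36 were positive, with a median of 0.44. No like count was made for pairs of other genes. Mrc1 and Csf1r varied together (r = 0.83, and 0.70 over deviations from group means). Mrc1 and Fcgr1 had the lowest r of all pairs, at -0.48, and -0.01 over deviations. C1qa and C1qb had r = 0.67 and 0.73, and Cd68 had 0.78 with both C1qb and Lyz2. These are descriptions over arrays that share groups and lots. The neighbours named next also share the group differences: over deviations from group means the 3 genes nearest to Mrc1 were others, Romo1 (0.94), Pgls (0.91) and Mrpl46 (0.88). Over all 14 arrays, genes with the pattern nearest to Mrc1 were Fcna, which encodes a ficolin, Pltp, a lipid transfer protein gene, and Cfp, the properdin gene (r = 0.95 for each). Nearest to Csf1r were Vac14 (r = 0.93), Marcks (0.92) and Mmp9 (0.90). Mmp9 was at the floor on 8 of the 14 arrays, so its r rests on few measured values. Nearest to C1qb was C1qc, the gene of the third C1q chain (0.89), followed by 1700037H04Rik and Tyrobp (0.85 each). The genes nearest to Fcgr1 were Mzf1 (0.91), Tbrg1 (0.89) and the interferon-inducible Isg15 (0.83). Nearest to Lyz2 were Fcgr2b, which encodes an inhibitory Fc receptor (0.90), and Cyba, a subunit gene of the phagocyte oxidase (0.89). Cd14 lay nearest to the macrophage elastase gene Mmp12 (0.82) and the keratin gene Krt7 (0.80), Cd68 to Psmc1 (0.85), C1qa to Hcls1 (0.82) and Adgre1 to Il9 (0.77).

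The counts of related genes that follow stand beside the share of all probe sets called, 29.9% in the first comparison, 1.17% in the second and 14.4% in the third, and beside medians of 0.16, 0.07 and 0.07 over all. The genes around CSF1 and its receptor had 11 measured members of 18 listed. In tumors against wild-type gland 1 rose and 4 fell, with a median log2 difference of -0.40. Those that fell were Cebpa (-3.88), Nr1h3 (-3.57), Klf4 (-2.47) and Irf8 (-1.13), and Cebpb rose by 1.18. Cebpa and Nr1h3 also act in fat cells. Csf1, the ligand, stood at 2319 in wild-type gland and 1904 in tumors (adjusted p = 0.272), and the myeloid regulator Spi1 at 680 and 625 (adjusted p = 0.785). Against adjacent gland, the same 4 genes fell, Irf8 by 1.23 (adjusted p = 0.0145). In adjacent against wild-type gland 1 of 11 was called, Cebpa (-1.37).

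Of 14 other macrophage genes measured, 2 rose and 3 fell in tumors against wild-type gland (median -0.09). The chemokine receptor gene Cx3cr1 rose by 0.81 (adjusted p = 0.0328) and the lysosomal protease gene Ctss by 0.74 (adjusted p = 0.0267). Lpl, a lipase of fat cells and macrophages, fell by 5.82, the monocyte chemokine receptor gene Ccr2 by 1.5 and the folate receptor gene Folr2 by 0.90. Tumor 50 was at the floor for Ccr2, so its differences are bounds. Ccr2 and Folr2 were also lower than in adjacent gland, with log2 differences of -1.74 and -1.24, and of -1.28 and -1.14 within lot 2001815. Tyrobp, the adaptor of several myeloid receptors, was not called (-0.43, adjusted p = 0.307).

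Of 10 complement genes other than the members, 1 rose and 5 fell (median -0.85). They included C1qc, which was not called (-0.18, adjusted p = 0.695). The C1 inhibitor gene Serping1 fell by 3.18. Log2 differences were -2.58 for Cfp, -1.86 for the protease gene C1ra and -1.57 for the receptor gene Cd93. Of 7 genes of CD14 and toll-like receptor signaling, the lipopolysaccharide binding protein gene Lbp rose by 2.21 and the inhibitor gene Nfkbia fell by 0.87. The only other Fc receptor gene that passed the filter, Fcgr2b, was not called (-1.04, adjusted p = 0.103). Of 17 genes on the array tied to macrophage activation, 7 passed the filter, of which 1 rose and 2 fell. Arg1, the arginase gene of alternative activation, rose from 811 to 5912, by 2.87 (adjusted p = 0.000518), and from 1561 in adjacent gland (adjusted p = 0.0104). Tissue RNA does not tell which cells made it. Chil3, of the same list, did not pass the filter, at 241 in wild-type gland and 181 in tumors. Vegfa fell by 1.36, and Mmp9 was at the floor in every tumor (log2 difference of -2.71 or lower).

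Of 22 pan-leukocyte genes 2 rose and 1 fell in tumors against wild-type gland, where 29.9% of all probe sets were called, with a median of -0.29 against 0.16 over all. The actin bundling gene Lcp1 rose by 1.54 and the phosphatase gene Ptpn6 by 1.10, both of which other cells can express, and Cd48 fell by 1.44. Their summed level was 29909 to 32066 in wild-type pools, 32298 to 50814 in adjacent gland and 26235 to 43680 in tumors. Among 5 neutrophil markers Lcn2, also an epithelial gene, rose by 2.78, and Prtn3 fell, by a log2 difference of -2.37 or lower because it was at the floor in 3 of the 5 tumors, while the granule gene S100a8 stood at 238 and 341 (adjusted p = 0.426). Of 5 dendritic cell markers Cd83 fell by 1.48. Neither of 2 measured T and NK cell markers was called. Of 6 B cell markers Pax5 rose and Jchain fell, and of 4 mast cell markers 3 fell and Kit rose, which was also the one called of 5 luminal progenitor markers.

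Markers of other tissue parts moved with the tumor groups. All 8 white adipocyte markers fell, with a summed level of 4084 to 8467 in tumors against 145080 to 210263 in wild-type gland and 70987 to 127367 in adjacent gland. Of 10 luminal epithelial markers 8 rose and 1 fell, with summed levels of 70086 to 110243, 41280 to 43425 and 45977 to 80036. The gene that fell was Krt19, from 11121 in wild-type gland to 202 in tumors. Its log2 difference was -5.78 or lower (adjusted p = 5.95e-06 in limma), as it was at the floor on 4 arrays. Of 4 genes listed as markers of lymphatic and sinusoidal endothelium, cells that can also express Mrc1, Pdpn fell by 1.63 and Stab1 by 1.33. Tissue RNA does not tell which cells, macrophages included, made the transcripts of this list. Lyve1 (-1.05, adjusted p = 0.0563) and Flt4 (0.14, adjusted p = 0.763) were not called in limma. Against adjacent gland Pdpn (-1.60), Stab1 (-1.38) and Lyve1 (-1.62) fell, and Flt4 was not called (-0.4, adjusted p = 0.441). Pdpn, Stab1 and Lyve1 also fell in set B against wild-type gland (-1.76, -1.33 and -1.49, where Lyve1 was at the floor in set B tumor 81). Flt4 stood at 461 in set B and 452 in wild-type gland. That list summed to 1492 to 2465 in tumors, 3532 to 4044 in wild-type gland and 3349 to 5233 in adjacent gland. On the actin control, the ratio of the 3' probe set over the 5' one, a measure of RNA integrity, was 0.08 to 0.76 (log2) in tumors and 0.14 to 0.21 in set B, below the 0.90 to 1.51 of the wild-type pools. Adjacent glands ranged from 0.38 to 1.52. The same ratio of the Gapdh control overlapped between tumors (-0.25 to 0.43) and the pools (0.17, 0.11 and 1.48). The part of these in the differences of Mrc1, Csf1r, Fcgr1 and Lyz2 was not tested.

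**Figure D4:**
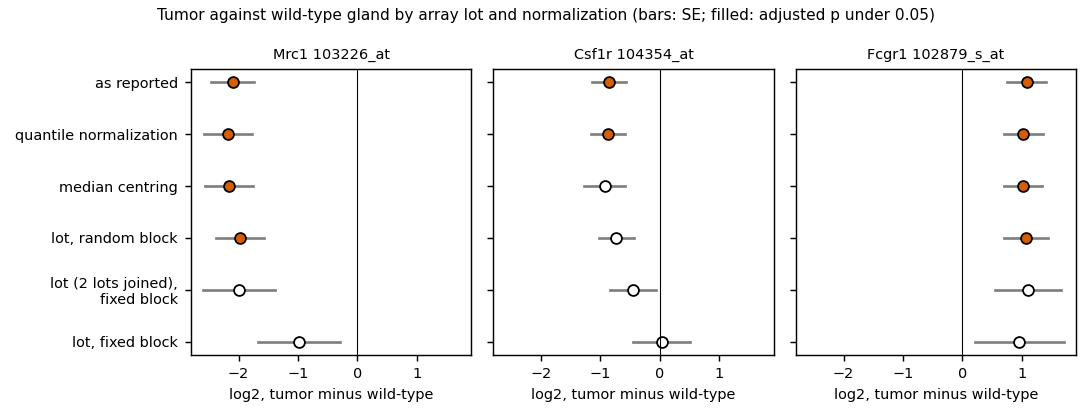
Log2 difference of tumors from wild-type gland for Mrc1, Csf1r and Fcgr1 as reported, under another normalization and with array lot in the model, which includes a fixed block with 2 lot numbers taken as 1 lot. Points are limma estimates, bars are 1 SE to either side and filled points were called. Mrc1 moves from -2.10 to -0.98 and Csf1r from -0.86 to 0.03 under the fixed block, where Fcgr1 is at 0.96.

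Lot bears on these values because the fixed block reaches tumors and wild-type gland only through adjacent gland. It adds the tumor-minus-adjacent difference of lot 2001815 to the adjacent-minus-wild-type difference of lot 2004907. For Mrc1 these are -1.33 and 0.35, for Csf1r -0.21 and 0.24, and for Fcgr1 0.14 and 0.82. If lot numbers 2004097 and 2004907 name 1 lot, tumors 50 and 52 shared it with pool 40, and the block then gave -1.99 for Mrc1 (adjusted p = 0.0507), -0.45 for Csf1r (adjusted p = 0.551) and 1.11 for Fcgr1 (adjusted p = 0.243). With lot as a random block, Mrc1 was -1.98 (adjusted p = 0.0018). With the fixed block 360 of all probe sets were called in place of 2574.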

How the data were processed

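RNA of 14 mouse mammary samples was measured on 1-color arrays. The deposited table, by the authors, holds 1 linear intensity per probe set and array, and its software is not given in the sources used. Trimmed means were equal across arrays (1500.67 to 1500.9), so the values were not normalized again. Intensities under 101.42, the 20th percentile of all values, were raised to that floor before taking log2. Without 66 control probe sets, 8616 were tested, each above its array's 40th percentile on 3 or more arrays. No pair of arrays within a group was a duplicate (at most 0.12% of values equal).

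All 14 arrays entered 1 model with 4 groups in limma 3.58.1 (R 4.3.3; eBayes with an intensity trend, which gave 10 residual and 5.75 prior degrees of freedom), tested on simulated data. p-values are two-sided, adjusted by Benjamini-Hochberg over all probe sets of a comparison, and called under 0.05. Alternatives changed the floor, filter, normalization, intensity trend, samples and lot.

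The members and the gene lists were chosen with earlier results of these data known. All member probe sets are reported. From each other list, the 4 called genes of largest change could be named, or 2 of smallest p if no gene was called. Csf1, Spi1, C1qc, Tyrobp, Ctss and S100a8 were added for their roles after their values had been seen. Chil3 and Flt4 also fall outside this rule in the comparisons where they are given. Genes of like pattern are the 3 with the highest Pearson r over the arrays.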

Additional observations from a re-analysis of the deposited data

Results flagged for a closer look

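In 24 sets of 4 to 5 arrays (each tested member probe set in tumors and in adjacent gland), 5 had a sample far from the others by Dixon's ratio, the gap to the nearest sample over the whole range on the log2 scale. Chance gives about 1 such set in 20. Mrc1 in tumor 52, at 201.5, had a ratio of 0.74 and was the lowest of the tumors. Csf1r 104354_at in tumor 50, at 3383, had 0.727 and was the highest, and Csf1r 161832_r_at in tumor 26, at 668.9, had 0.822 and was the highest. Adgre1 in tumor 22, at 93.4 and so below the floor, had 0.897 and was the lowest. Fcgr1 101793_at in adjacent gland 51, at 588.2, had 0.898 and was the highest.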

How the results depend on the processing

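Of 711 values of single probe sets recomputed under another setting, 626 kept their direction and their side of the threshold, 28 lost a call, 4 gained one, 53 changed sign, and none of the 53 had been called apart from Csf1r. With lot as a fixed block, or with lots 2004097 and 2004907 as 1 lot, 0 members were called in tumors against wild-type gland, with 360 and 921 of all probe sets called. In tumors against adjacent gland 0 were called with the fixed block and 0 within lot 2001815, with 597 and 209 of all. For set B against wild-type gland 1 was called with no filter, with median centring, with no intensity trend and with lot as a random block. Leaving out 1 array gave 1 to 4 members called in tumors against wild-type gland (1774 to 2512 of all 8616 probe sets), 1 to 2 against adjacent gland (878 to 1379) and 1 to 2 for set B (1053 to 1664).

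Sign changes in tumors against wild-type gland were as follows. With the fixed block, Csf1r 104354_at was 0.031, Cd68 0.58, C1qb 162276_i_at -0.67 and C1qb 96020_at 0.73. With the lots joined, Csf1r 161832_r_at was -0.19 and the C1qb probe sets were -0.57 and 0.25. Csf1r 161832_r_at was -0.034 under quantile normalization and -0.052 under median centring, and Cd14 was 0.01 under quantile normalization. In adjacent against wild-type gland, the fixed block and lot 2004907 alone gave Mrc1 0.35, Csf1r 104354_at 0.24, Cd14 -0.22, C1qb 162276_i_at -0.31 and Lyz2 0.30. With the lots joined, Csf1r was 0.057 and, at 161832_r_at, -0.041, C1qb 162276_i_at was -0.27 and Lyz2 0.078. Csf1r 161832_r_at was -0.022 and Lyz2 0.043 under quantile normalization, and Csf1r 161832_r_at was -0.004 and Cd68 -0.072 under median centring. In tumors against adjacent gland Cd68 was 0.047 with the fixed block and within lot 2001815, and Fcgr1 101793_at was -0.10 with a floor at the 30th percentile. Where signs changed on leaving out 1 array, the tumor against wild-type range was -0.164 to 0.114 for Csf1r 161832_r_at, -0.21 to 0.98 for Adgre1 and -0.22 to 0.33 for Cd14. Adjacent against wild-type ranges were -0.31 to 0.12 for Mrc1, -0.018 to 0.30 for Csf1r 161832_r_at, -0.089 to 0.19 for Cd68, -0.22 to 0.70 for Fcgr1 101793_at, -0.058 to 0.42 for C1qb 96020_at and -0.26 to 0.07 for Lyz2. Tumor against adjacent ranges were -0.47 to 0.33 for Adgre1, -0.16 to 0.73 for Fcgr1 101793_at, -0.44 to 0.11 for Cd14 and -0.46 to 0.37 for C1qb 162276_i_at. The cause was not tested. No paired analysis was possible because the groups share no replicate numbers and the labels do not say which gland surrounded which tumor. Fcgr1 101793_at had values at the floor in every group, so its differences carry little signal.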
